A study of Homo sapiens with 18 samples.

Results

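Vinculin and 8 genes whose products link membrane adhesions to actin filaments, or control such genes, were followed in human H295R adrenocortical carcinoma cells with or without added glucocorticoid receptor alpha (GRα). The set is VCL (vinculin), ABLIM1 (actin-binding LIM protein 1), TLN1 (talin 1), ZYX (zyxin), PXN (paxillin), ACTN1 and ACTN4 (α-actinins), FLNA (filamin A) and SRF (serum response factor). VCL and ABLIM1 were chosen because their values rose with dexamethasone in these same arrays, so their values in the vehicle and dexamethasone arrays are given below as a description and without a test. The other 7 genes were added as their partners. Of the 9 genes, 8 had a probe set of their own among 18417 genes. FLNA had none, so its expression was not analysed here and only its promoter window was read.

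The cells were stable, non-inducible lines carrying either an empty pcDNA4 vector (control) or a GRα construct, both kept under Zeocin selection. Each line was grown to 70% confluence and held without serum for 24 h. Cells then received ethanol vehicle, the agonist dexamethasone at 100 nM or the antagonist RU486 (mifepristone) at 100 nM for 6 h. Arrays numbered 3 per group, except GRα with RU486, where 2 of 3 gave values, for 17 in all. Replicates are labelled biological and carry the letters A, B and C, but the labels do not say that they were separately grown cultures, and each line stands for its genotype alone. Any difference between the lines is therefore a difference between those 2 lines, with the construct, the selection of the line and its culture history not told apart.

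Talin binds the tails of integrins, and vinculin binds talin and actin, so that an adhesion under load holds its filament. Zyxin and paxillin are LIM-domain adaptors of the same adhesions, α-actinins and filamin A crosslink the filaments, and the abLIM proteins bind actin through a headpiece like that of villin. SRF binds CArG boxes, a run of A and T between CC and GG, and with myocardin-related cofactors it drives many actin and adhesion genes, VCL, ACTN1, ZYX, TLN1 and SRF itself among the known targets. The glucocorticoid receptor is a nuclear receptor that dexamethasone activates and RU486 blocks, and its response element is a pair of AGAACA half-sites facing each other across a gap.

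The bases just before the annotated start sites are shown because they hold, or lack, the letters of these 2 kinds of site in the genes that moved with dexamethasone and in SRF itself. RefSeq (GRCh38.p14) gave 20 windows for the 9 genes, each running from 250 bases before to 50 bases after a start site, 1 for VCL and 6 for ABLIM1. Each line below gives the bases before 1 start site, 5′ to 3′ on the gene's strand, or 30 bases around a match, with CArG boxes in capitals. VCL lies at chr10:73997866-73998115 on the plus strand, the first listed ABLIM1 start at chr10:114685004-114685253 on the minus strand and the first SRF start at chr6:43171019-43171268 on the plus strand. The ACTN1 stretch lies at chr14:68977718-68977747 and the FLNA stretch at chrX:154374709-154374738, both on the minus strand.
VCL: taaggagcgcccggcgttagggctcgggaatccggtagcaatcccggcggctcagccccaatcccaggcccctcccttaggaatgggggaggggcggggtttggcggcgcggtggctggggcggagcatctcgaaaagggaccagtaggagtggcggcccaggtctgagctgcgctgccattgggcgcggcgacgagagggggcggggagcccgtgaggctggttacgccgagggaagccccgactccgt
ABLIM1: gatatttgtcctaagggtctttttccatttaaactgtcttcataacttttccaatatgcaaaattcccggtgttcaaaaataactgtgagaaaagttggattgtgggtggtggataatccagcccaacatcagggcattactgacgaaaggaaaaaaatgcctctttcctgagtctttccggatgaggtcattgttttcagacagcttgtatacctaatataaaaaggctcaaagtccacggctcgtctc
SRF: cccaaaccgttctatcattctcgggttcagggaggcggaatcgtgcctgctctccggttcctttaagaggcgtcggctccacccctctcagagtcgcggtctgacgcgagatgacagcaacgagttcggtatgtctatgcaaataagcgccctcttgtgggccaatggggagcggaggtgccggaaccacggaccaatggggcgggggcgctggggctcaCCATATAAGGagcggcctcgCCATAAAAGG
ACTN1: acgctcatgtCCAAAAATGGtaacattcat
FLNA: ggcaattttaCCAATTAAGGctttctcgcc

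CArG boxes, searched on both strands, stood in 3 of the 20 windows, against 454 of 35116 windows of the same length in the whole table (1.29%). The first SRF window held 2, at bases -30 to -21 and -10 to -1 from the start site. The third ACTN1 window held 1 at -171 to -162, and the FLNA window held 1 at -94 to -85. Neither VCL nor any of the 6 ABLIM1 windows held one. The full glucocorticoid element, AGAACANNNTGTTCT, matched none of the 20 and 1 of 35116 windows (0.00285%). A looser form, GNACANNNTGTNC, also matched none of the 20 and 137 in the table (0.39%). The half-site AGAACA on either strand, which overlaps the full element, matched 2 of the 20 windows (1 of ACTN1 and 1 of ACTN4) and 14.8% of the table. A missing match says only that these letters are not in these windows.

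VCL was highest in GRα cells given dexamethasone. All values are log2 intensities after RMA, the background correction, quantile scaling and probe summary used for these arrays, so 1 unit is a doubling. In GRα cells VCL read 8.13, 7.80 and 8.22 with vehicle (8.05 ± 0.22, SD, n = 3) and 9.13, 9.19 and 9.06 with dexamethasone (9.13 ± 0.06, n = 3). It read 8.21 and 8.19 with RU486 (8.20 ± 0.02, n = 2). Every dexamethasone array lay above every other array of the line, while the vehicle and RU486 arrays overlapped.

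In control cells VCL read 8.34, 8.30 and 8.35 with vehicle (8.33 ± 0.03) and 8.69, 8.64 and 8.73 with dexamethasone (8.68 ± 0.05). With RU486 it read 8.33, 8.27 and 8.34 (8.31 ± 0.03). Here too the dexamethasone arrays stood clear of the rest and the other treatments overlapped. The rise over vehicle was 1.08 ± 0.08 (log2, SE; 2.11-fold) in GRα cells and 0.35 ± 0.08 (1.28-fold) in control cells, a difference of 0.72 ± 0.12. Ranked by the size of the rise, VCL stood 10th of 18417 genes in GRα cells and 64th in control cells. Vehicle array B of GRα cells had the lowest VCL value of all 17, and without it the rise in GRα cells was 0.95.

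**Figure D1:**
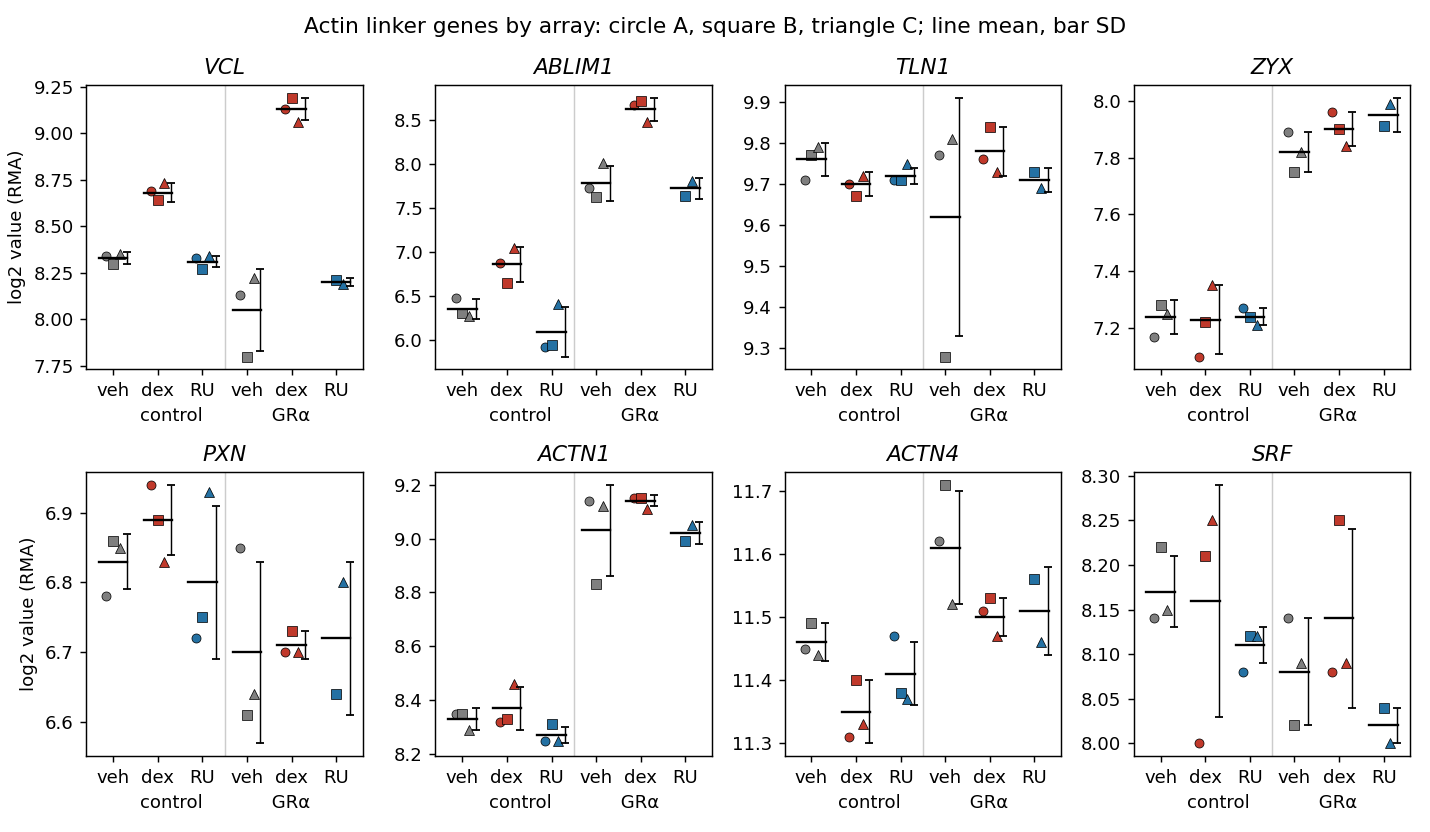
Log2 RMA value (y axis, own range in each panel) of the 8 measured genes on every array, by line and treatment (veh, vehicle; dex, dexamethasone; RU, RU486). Points are arrays (circle A, square B, triangle C), the horizontal line is the group mean and the bar its SD. VCL and ABLIM1 stand higher with dexamethasone in both lines, whereas ZYX, ACTN1 and ABLIM1 differ between the lines under every treatment.

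ABLIM1 differed by line as well as by ligand. In control cells it read 6.48, 6.31 and 6.27 with vehicle (6.35 ± 0.11, n = 3), 6.87, 6.65 and 7.04 with dexamethasone (6.86 ± 0.20) and 5.92, 5.94 and 6.41 with RU486 (6.09 ± 0.28). In GRα cells it read 7.72, 7.62 and 8.01 with vehicle (7.78 ± 0.20), 8.67, 8.72 and 8.48 with dexamethasone (8.62 ± 0.13) and 7.63 and 7.80 with RU486 (7.72 ± 0.12, n = 2). The lowest GRα array lay above the highest control array, so the lines did not overlap under any treatment. Within each line the dexamethasone arrays lay above all others, and the vehicle and RU486 arrays overlapped.

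The ABLIM1 rise over vehicle was 0.84 ± 0.13 (1.79-fold, 24th of all genes) in GRα cells and 0.51 ± 0.13 (1.42-fold, 16th) in control cells. The difference between these rises was 0.34 ± 0.19. The order of group means from low to high was control with RU486, vehicle and dexamethasone, then GRα with RU486, vehicle and dexamethasone. For VCL the order was GRα vehicle, GRα RU486, control RU486, control vehicle, control dexamethasone and GRα dexamethasone. The first 4 of these lay between 8.05 and 8.33, and the last 2 stood apart.

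No change of the 6 measured partner genes with dexamethasone passed the test in either line. In GRα cells their differences from vehicle ran from -0.11 (ACTN4) to 0.16 (TLN1), and 0 of 6 passed (limma, Benjamini-Hochberg adjusted p over all genes 0.404 to 0.973, and 0 of 6 at an unadjusted p under 0.05). Over all genes 372 of 18417 passed there, 2.02% (1.36% higher and 0.662% lower). In control cells the differences ran from -0.11 (ACTN4) to 0.06 (PXN), again with 0 of 6 called and 0 of 6 at an unadjusted p under 0.05, against 48 genes or 0.261% overall. With backgrounds this low, 0 of 6 is what the share over all genes gives.

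The intervals bound how large a missed change could be. For TLN1 in GRα cells the 95% interval was -0.05 to 0.37, the widest on the high side, and for ZYX it was -0.07 to 0.22. ACTN1 gave -0.05 to 0.27, PXN -0.15 to 0.17 and SRF -0.09 to 0.20. TLN1 rested on 1 array: GRα vehicle arrays read 9.77, 9.28 and 9.81, and without the middle one, array B, the difference of 0.16 became -0.01. The ACTN1 difference of 0.11 became 0.01 without the same array.

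ACTN4, the α-actinin most known for its role in epithelial and kidney podocyte cells, differed by the same small amount in both lines. Control cells read 11.45, 11.49 and 11.44 with vehicle and 11.31, 11.40 and 11.33 with dexamethasone, without overlap. GRα cells read 11.62, 11.71 and 11.52 with vehicle and 11.51, 11.53 and 11.47 with dexamethasone, which overlapped. Dexamethasone minus vehicle was -0.11 ± 0.06 in each line, with the 95% interval -0.24 to 0.02 in both, and neither passed.

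The lines' responses to dexamethasone were compared directly. Across all genes 12 of 18417 (0.0652%) passed for a difference between the 2 lines in the response. Among the 6 partner genes, 0 passed, with differences from -0.05 to 0.22 and adjusted p from 0.754 to 0.998, and 0 passed at an unadjusted p under 0.05.

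**Figure D2:**
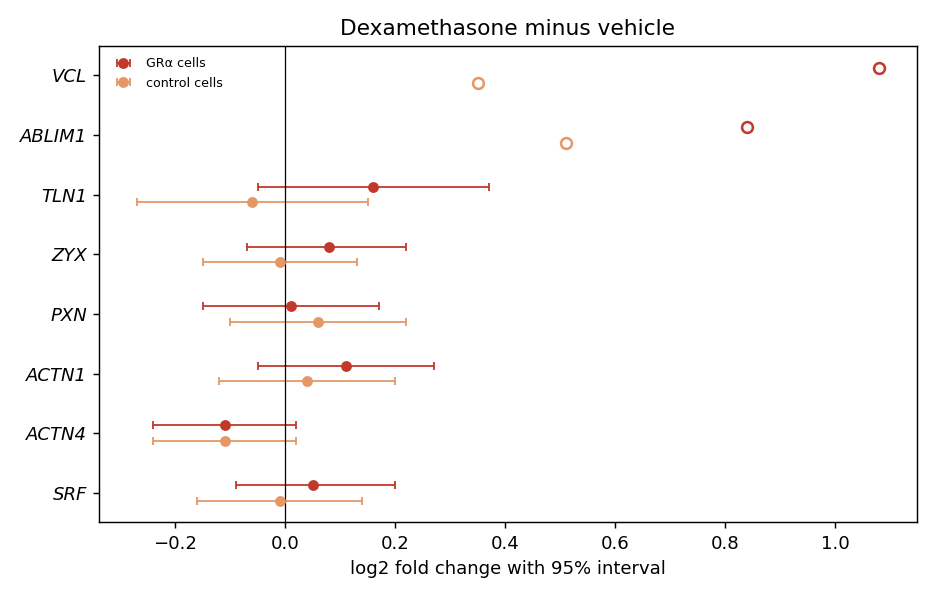
Dexamethasone minus vehicle (x axis, log2 fold change; points with 95% intervals from the limma fit) for each gene in GRα and control cells. VCL at 1.08 and ABLIM1 at 0.84 in GRα cells were chosen on these differences and are open points with no interval; the intervals of the other 6 genes include 0 in both lines.

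No change of the 6 partners with RU486 alone passed the test. In GRα cells their differences from vehicle ran from -0.10 (ACTN4) to 0.13 (ZYX), and in control cells from -0.06 (ACTN1 and SRF) to 0.01 (ZYX). Limma called 0 of 6 in each line, and 0 of 6 reached an unadjusted p under 0.05. As a description, since VCL and ABLIM1 were chosen against these vehicle arrays, VCL differed by 0.15 ± 0.09 in GRα and -0.02 ± 0.08 in control cells. ABLIM1 differed by -0.07 ± 0.15 and -0.26 ± 0.13. Over all genes it also called 0% in GRα and 0% in control cells, where the unadjusted p fell under 0.05 for 1572 and for 621.

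Agonist and antagonist were compared at the matched dose and time. Dexamethasone minus RU486 was 0.93 ± 0.09 (1.9-fold) for VCL and 0.91 ± 0.15 (1.88-fold) for ABLIM1 in GRα cells. In control cells it was 0.37 ± 0.08 (1.29-fold) for VCL and 0.77 ± 0.13 (1.7-fold) for ABLIM1. These 4 values share the dexamethasone arrays with the rises that chose the pair and are descriptions. For the 6 partners the differences ran from -0.05 to 0.12 in GRα cells and from -0.06 to 0.10 in control cells, with 0 of 6 called in each line and 0 of 6 at an unadjusted p under 0.05. Limma called 0.896% of all genes in GRα cells (0.744% up and 0.152% down) and 0.364% in control cells. Adjusted p-values of the partners ran from 0.739 to 0.995 and from 0.945 to 0.997.

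ACTN1 and ZYX differed between the lines under all 3 treatments, and ABLIM1 with RU486, where it could be tested. The RU486 arrays played no part in choosing VCL and ABLIM1, so there all 8 genes were tested. ABLIM1 was higher in GRα cells by 1.63 ± 0.15 (3.09-fold, adjusted p = 1.5e-07, limma), ACTN1 by 0.75 ± 0.08 (1.68-fold, adjusted p = 1.54e-06) and ZYX by 0.70 ± 0.08 (1.63-fold, adjusted p = 1.33e-06). All 3 kept their call when any 1 array of the 5 or GRα vehicle B was left out. So 3 of 8 genes were called, all higher, where 29.2% of all genes were called (13.1% higher and 16.2% lower), and the count is read beside that large background.

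ACTN1, which crosslinks actin filaments at adhesions and along stress fibres, read 8.25, 8.31 and 8.25 in control cells with RU486 and 8.99 and 9.05 in GRα cells. With vehicle it read 8.35, 8.35 and 8.29 against 9.14, 8.83 and 9.12. With dexamethasone it read 8.32, 8.33 and 8.46 against 9.15, 9.15 and 9.11. No control array reached the lowest GRα array. The line difference was 0.70 ± 0.07 with vehicle (adjusted p = 8.08e-07) and 0.77 ± 0.07 with dexamethasone (adjusted p = 2.52e-07, limma).

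ZYX, a LIM protein that moves to strained filaments and recruits Ena/VASP proteins, read 7.27, 7.24 and 7.21 in control cells with RU486 and 7.91 and 7.99 in GRα cells. With vehicle the arrays read 7.17, 7.28 and 7.25 against 7.89, 7.75 and 7.82. With dexamethasone they read 7.10, 7.22 and 7.35 against 7.96, 7.90 and 7.84. The lines were again fully apart. The difference was 0.58 ± 0.07 with vehicle (adjusted p = 2.75e-06) and 0.67 ± 0.07 with dexamethasone (adjusted p = 4.73e-07, limma).

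For VCL the line difference with RU486 was -0.11 ± 0.09 and did not pass (adjusted p = 0.433, limma). The other line differences of the pair rest on arrays that served to choose it and are descriptions. GRα minus control was -0.28 ± 0.08 for VCL with vehicle, or -0.16 without GRα vehicle array B, and 0.44 ± 0.08 with dexamethasone. For ABLIM1 it was 1.43 ± 0.13 with vehicle (2.7-fold) and 1.77 ± 0.13 with dexamethasone.

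TLN1, PXN, ACTN4 and SRF were not called between the lines under any treatment in the main fit. With RU486 their differences were -0.01 ± 0.11, -0.08 ± 0.08, 0.10 ± 0.07 and -0.09 ± 0.08. SRF, the transcription factor of the set, read 8.08, 8.12 and 8.12 in control and 8.04 and 8.0 in GRα cells there, lower without overlap but within its error (95% interval -0.25 to 0.08). TLN1 arrays lay between 9.67 and 9.84 in every group except for GRα vehicle array B at 9.28. PXN arrays spanned 6.61 to 6.94 over all groups. With dexamethasone PXN differed by -0.18 ± 0.07 without overlap (adjusted p = 0.0784, limma). It was called there with array weights (0.0481) and when only the groups compared were fitted (0.0484). PXN had a second, dimmer probe set, with group means between 5.95 and 6.08.

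ACTN4 stood near the threshold at 0.15 ± 0.06 with vehicle (adjusted p = 0.0677, limma) and at 0.15 ± 0.06 with dexamethasone (adjusted p = 0.0656). When arrays were centred on their medians it was called under both (adjusted p = 0.046 and 0.0387). The same held without the dimmest genes (0.0465 and 0.0445) and with the trend and robust options (0.0128 and 0.0118). With vehicle 2 of the 6 partners were called, ACTN1 and ZYX, against 33.4% of all genes (15% higher and 18.3% lower), a like share. In the dexamethasone arrays ACTN1 and ZYX were called, 2 of 6 partners, against a share of 33.3% overall (15.7% up and 17.6% down).

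**Figure D3:**
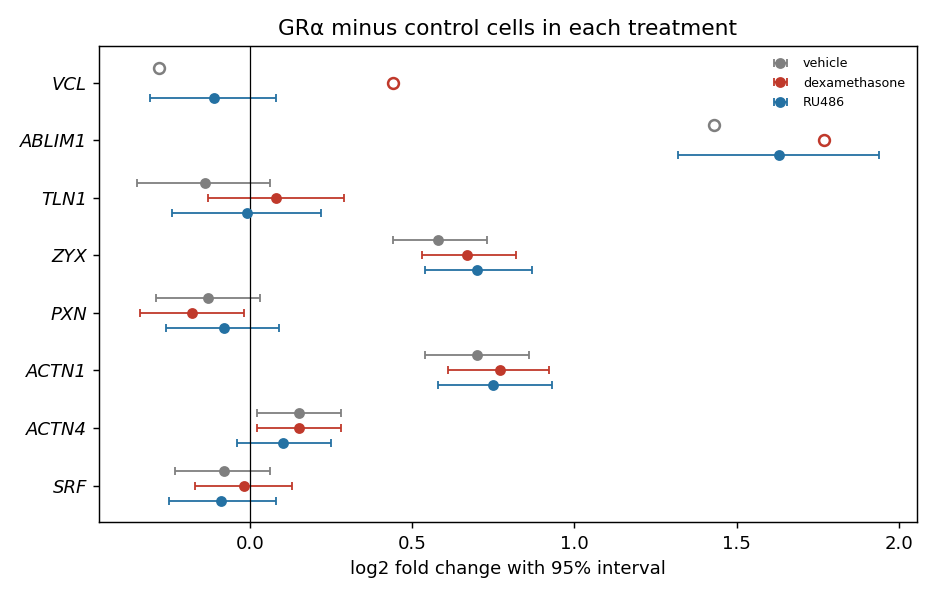
GRα minus control cells (x axis, log2 fold change; points with 95% intervals from the limma fit) under each treatment; open points with no interval are values of VCL and ABLIM1 on arrays that served to choose them. ABLIM1, ACTN1 and ZYX lie above 0 under all 3, and VCL lies at -0.28 with vehicle, -0.11 with RU486 and 0.44 with dexamethasone.

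Close relatives of the set moved in part the other way. ABLIM3, the abLIM paralog, was lower in GRα cells, with log2 differences of -0.70 ± 0.09 with vehicle and -0.76 ± 0.10 with RU486 (adjusted p = 8.11e-06, limma), where ABLIM1 was higher. TLN2, the second talin, was higher by 0.25 ± 0.09 with RU486 (adjusted p = 0.048), a call kept in 1 of 6 fits with 1 array left out. ACTN2, the sarcomeric α-actinin, was higher by 0.48 ± 0.10 with vehicle (adjusted p = 0.00138, limma), while its difference of 0.28 ± 0.11 with RU486 did not pass (adjusted p = 0.0794). ACTN3 was higher by 0.41 ± 0.09 with vehicle, but its difference of -0.10 with RU486 did not pass. Both TLN2 and ACTN3 were dim, at 5.15 ± 0.10 and 5.19 ± 0.02 in GRα cells with RU486 (n = 2).

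A further 6 lists holding 123 adhesion and actin genes, 111 of them measured, gave the wider setting. With RU486, GRα cells were higher than control for 35 and lower for 17 of the 111 (46.8%, against 29.2% of all genes), with a median difference of 0.06 against -0.01 over all genes. With vehicle 40 were higher and 16 lower (50.5%, median 0.12 against 0.01). Dexamethasone against vehicle in GRα cells called 2 of 111, both lower (1.8%, against 2.02% of all genes, with medians of 0 and -0.01), and 17 (15.3%) had an unadjusted p under 0.05, as had 15.3% of all genes. In control cells it called 0, with 6 (5.41%) at an unadjusted p under 0.05 and 4.91% of all genes.

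Each list count is read beside the shares over all genes with RU486, 13.1% up and 16.2% down in GRα cells. Focal adhesion adaptors were higher for 9 of 28 and lower for 0, 32.1% called in all. SORBS2, an adaptor that binds vinculin and actin, was higher by 1.33 ± 0.07, the zyxin relative LPP by 1.00 ± 0.08, testin (TES) by 0.76 ± 0.07 and the adaptor CRKL by 0.67 ± 0.07. With vehicle 11 were higher and 0 lower, beside 15% and 18.3% of all genes. Integrin subunits were higher for 5 and lower for 3 of 17 with RU486, 47.1% called against 29.2% of all genes. The αV subunit ITGAV was higher by 1.34 ± 0.06 and the fibronectin receptor subunit ITGA5 by 1.05 ± 0.11, the collagen receptor subunit ITGA11 by 1.08 ± 0.10 and ITGA8 by 0.85 ± 0.10. ITGA6, a laminin receptor subunit, was lower at a log2 difference of -0.57 ± 0.12 and ITGA9 at -0.48 ± 0.09.

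Actin crosslinkers and filament binders gave 9 higher and 6 lower of 26 in the RU486 arrays, 57.7% called against 29.2% of all genes. Supervillin (SVIL) was higher by 1.55 ± 0.09, the α-actinin partner PDLIM3 by 1.34 ± 0.12, β-spectrin (SPTBN1) by 0.86 ± 0.10 and L-plastin (LCP1) by 0.65 ± 0.10. The bundling protein fascin (FSCN1) was lower at -0.38 ± 0.06 and the zyxin ligand ENAH at -0.45 ± 0.07. Among cadherin and catenin linkers 3 were higher and 3 lower of 10, where 13.1% and 16.2% of all genes were. CTNNA2, the neuronal α-catenin, was higher by 0.84 ± 0.09, and CTNNA1, the broadly expressed α-catenin, was lower at -0.38 ± 0.06.

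Of 25 known SRF targets 8 were higher and 5 lower with RU486, beside 13.1% and 16.2% of all genes. With vehicle 11 were higher and 4 lower, beside 15% and 18.3%. Smooth muscle actin ACTA2 was higher in GRα cells by 1.43 ± 0.11, caldesmon (CALD1) by 1.24 ± 0.08, tropomyosin TPM1 by 1.04 ± 0.11 and the matricellular CCN1 by 0.60 ± 0.08. TAGLN2 was lower at -0.51 ± 0.10, the calponin CNN3 at -0.43 ± 0.06, FHL2 at -0.32 ± 0.09 and cytoplasmic β-actin (ACTB) at -0.25 ± 0.06. The FHL2 difference ran from -0.45 to -0.19 with 1 array left out, and its call was not kept in every such fit. Of 5 SRF cofactors measured, which did not include MRTFA, MRTFB was called with RU486, higher by 0.30 ± 0.09 (adjusted p = 0.0158, limma). That call was kept in 3 of 6 fits with 1 array left out. With vehicle 2 of the 5 were higher, MRTFB and MYOCD, beside 15% of all genes. MRTFB kept that call in 2 of 6 such fits. MYOCD kept it in 6 of 6, with differences of 0.22 to 0.29, but was dim at 4.69 ± 0.05 in GRα cells with vehicle.

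**Figure D4:**
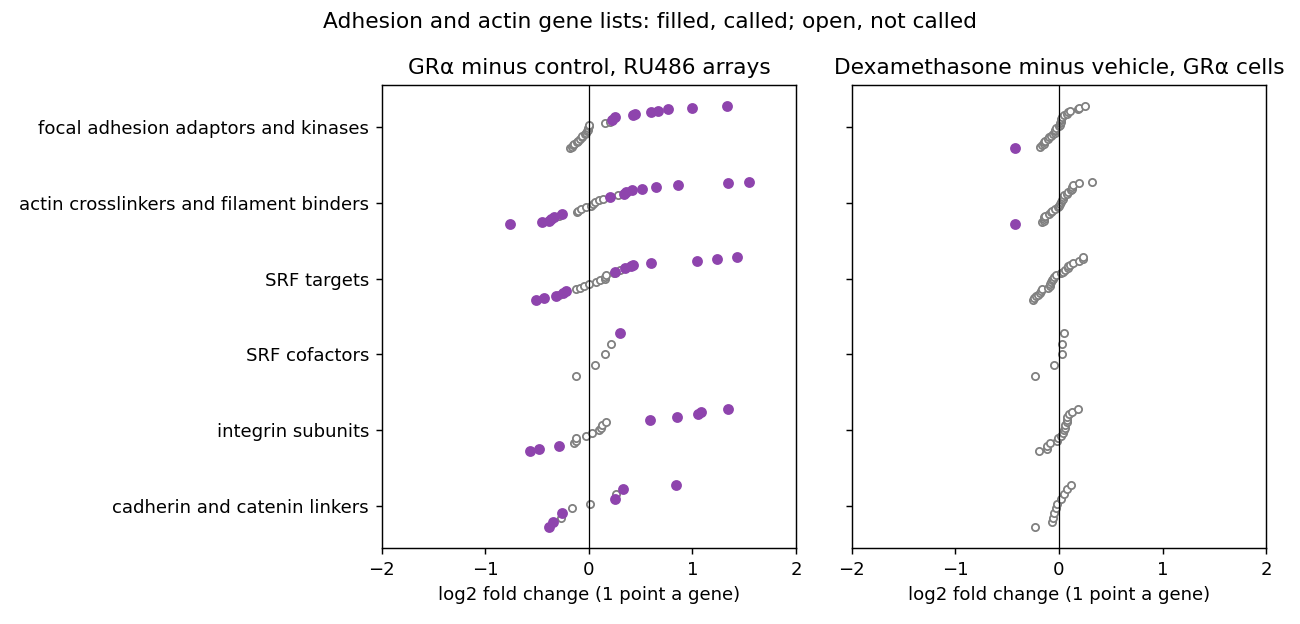
Log2 fold change of every measured gene (1 point each) in 6 adhesion and actin lists, for GRα minus control cells with RU486 (left) and dexamethasone minus vehicle in GRα cells (right). Filled points passed the adjusted p threshold of 0.05. The left panel has 52 filled points of 111 and the right panel 2, TES and ACTN3.

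The genes of these lists called with dexamethasone in GRα cells were TES and ACTN3. TES, a LIM protein that binds zyxin, read 9.78, 9.84 and 9.80 with vehicle, 9.39, 9.37 and 9.40 with dexamethasone and 9.70 and 9.71 with RU486. The dexamethasone arrays lay below all others of the line. TES fell by 0.42 ± 0.06 on the log2 scale (adjusted p = 0.000636, limma), which held in all 6 fits with 1 array left out. The adjusted p was 0.0542 when only those groups were fitted. In control cells the arrays read 9.0, 8.84 and 8.95 with vehicle and 8.86, 8.80 and 8.69 with dexamethasone, a difference of -0.14 ± 0.06 (adjusted p = 0.912). The difference between the lines' responses was -0.28 ± 0.09 (adjusted p = 0.449), so the responses were not shown to differ. Against RU486 TES was lower at -0.31 ± 0.07 (adjusted p = 0.0309, limma). That call was kept without GRα vehicle B, an array outside this comparison, and lost without any array compared. Without a dexamethasone array the adjusted p was 0.0791 to 0.115. It was 0.0513 with median centring, 0.0561 with the replicate block and 0.179 when only the groups compared were fitted.

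ACTN3, the fast-muscle α-actinin, fell by 0.42 ± 0.09 in GRα cells with dexamethasone (adjusted p = 0.0164, limma). It was dim, at 5.46 ± 0.16 with vehicle, and among the dimmest genes left out in an alternative fit. The call was lost without GRα vehicle B (adjusted p = 0.0768), dexamethasone B (0.0895) or dexamethasone C (0.0536). It was lost too with array weights (0.0939) and when only those groups were fitted (0.181). In control cells ACTN3 differed by 0.19 ± 0.09, which did not pass. Within GRα cells dexamethasone minus RU486 was -0.15 for ACTN3 and did not pass (adjusted p = 0.756, limma). RU486 minus vehicle was -0.28 ± 0.10, without overlap, and did not pass either (adjusted p = 0.522, limma). The fall was thus seen against vehicle and was not shown against RU486.

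The genes whose values over the 17 arrays most resembled VCL were PLCE1 (Pearson r = 0.971), FRY (0.96), JADE1 (0.957), CSRNP1 (0.956) and SYDE2 (0.954). Those most like ABLIM1 were PHEX (0.99), ROR2 (0.988), DGKG (0.978), ZNF521 (0.971) and TMEM266 (0.97). With each line's mean removed, the genes listed for VCL ranked 6th, 2nd, 3rd, 13th and 20th in the same order. Those listed for ABLIM1 then ranked 4th, 6th, 27th, 68th and 90th, so that list leaned more on the line difference. With dexamethasone in GRα cells the genes listed for VCL rose by 0.79 (JADE1) to 1.06 (FRY). Those listed for ABLIM1 rose by 0.26 (TMEM266) to 0.67 (PHEX). VCL and ABLIM1 were chosen on such rises, so likeness to them in part restates that choice. The points share lines, treatments and arrays, so these coefficients only describe likeness.

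VCL and ABLIM1 both lie on the long arm of chromosome 10, and 6 measured genes nearest each were read. Around VCL these were CAMK2G, PLAU, C10orf55, AP3M1, ADK and KAT6B. Around ABLIM1 they were TDRD1, VWA2, AFAP1L2, FHIP2A, TRUB1 and ATRNL1. With dexamethasone in GRα cells KAT6B was called, higher by 0.26 ± 0.06 (adjusted p = 0.0473, limma), and the other 11 ran from -0.18 to 0.11. That is 1 of 12, where 2.02% of all genes were called. In control cells 0 of 12 were called, with 0.261% of all genes, and PLAU had the largest difference, 0.25 ± 0.08 (adjusted p = 0.412).

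NR3C1, the gene of the receptor itself, was higher in GRα than control cells with vehicle, 7.94 ± 0.04 against 7.36 ± 0.07 (0.59 ± 0.07, 1.5-fold, adjusted p = 1.37e-06, limma). Pairs of arrays from 1 line had r of 0.987 to 0.997, and pairs across lines 0.971 to 0.977. GRα vehicle B had the lowest array weight, 0.19, with the next at 0.65. Of the 10 adrenocortical markers CYP11A1, STAR, CYP17A1, SULT2A1 and NR5A1 averaged 8.68 to 10.18, above at least 82.4% of genes. HSD3B2, INHA, CYP11B1, MC2R and CYP11B2 averaged 5.34 to 6.58, above 21% to 45% of genes. The mean of the 10 was 7.82 to 7.98 in control and 7.44 to 7.60 in GRα arrays. With RU486 1 was called higher and 3 lower in GRα cells, and with vehicle 1 higher and 5 lower, beside 29.2% and 33.4% of all genes called.

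The mean of 9 fibroblast markers was 5.78 to 5.90 in control and 5.90 to 6.12 in GRα arrays, with 2 higher with RU486, 3 with vehicle and 0 lower. That is 22.2% and 33.3%, beside 29.2% and 33.4% of all genes called (13.1% and 15% higher). Their levels ran from LUM at 3.56 and DCN at 4.02 to COL1A1 at 7.36 and FAP at 9.48, above 92% of genes. The 7 smooth muscle markers were at 6.19 to 6.32 and 6.29 to 6.55, with 1 higher in each, ACTA2, which is also in the SRF list. Of the 6 endothelial and 5 leukocyte markers 0 were called with RU486, and 2 and 1 were higher with vehicle. Those are 14.3% of smooth muscle markers in each, and 33.3% of endothelial and 20% of leukocyte markers with vehicle, beside the same shares over all genes. The leukocyte gene PTPRC averaged 3.81. The part of these marker shifts in the line differences was not tested, and in bulk RNA fewer cells with a transcript and less of it per cell cannot be told apart.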

How the data were processed

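Total RNA of 17 arrays in 6 groups was analysed. The authors deposited log2 values per probe set, made with RMA per the submitters' processing notes, which also name limma; for the genome build and versions they used, the sources at hand say nothing. Values ran from 2.07 to 14.15, with array medians of 6.28 to 6.35. An empty 18th column, an array its label says failed quality control, was not used. Probe sets were named through the platform annotation: 19460 of 29153 had 1 symbol, 1754 several and 7939 none. For the 769 genes with several probe sets the one with the highest mean was used. Array data give no read depth, and the number of arrays limits precision.

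A mean per group was fitted with limma 3.58.1 in R 4.3.3 (lmFit, eBayes, 11 residual and 5.89 prior degrees of freedom), with Benjamini-Hochberg adjustment over 18417 genes in each of 10 comparisons and a threshold of 0.05. Intervals are 95% and unadjusted. The steps were tested on simulated data. P-values measure the spread between these arrays, which may be partly technical. Replicate letters were not used as pairs in the main fit. Deviations of same-lettered arrays correlated at -0.092 to 0.324 and those of different-lettered arrays at -0.366 to 0.274. With so few arrays this does not settle whether the letters mark pairs.

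The genes of the set and the lists were chosen with earlier results of these data known; 1 planned list is not reported here. Named were all members; up to 4 called, non-overlapping genes per list, comparison and direction; the 5 genes most like VCL and like ABLIM1; and 3 measured neighbours on either side. TLN2 and ACTN2 were named after their values were seen, as relatives of the set. Promoter sequences are from RefSeq, GRCh38.p14. Alternatives were median centring, leaving out the dimmest genes, averaging probe sets, trend and robust options, array weights, a replicate block, fitting only the groups compared, and leaving out each array.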

Additional observations from a re-analysis of the deposited data

How the results depend on the processing

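Counts of the tested members were 2 to 3 of 6 for the lines with vehicle, 3 of 8 with RU486 and 2 to 3 of 6 with dexamethasone over all alternatives, and 0 for every treatment comparison. For the 111 list genes, alternatives were added after seeing the data. The count called with dexamethasone in GRα cells, 2, became 1 with array weights, 0 when only the groups compared were fitted, and 1 to 3 without single arrays. Without the dimmest genes 95 list genes were left and 1, TES, was called, while ACTN3 was not among the genes fitted. The count against RU486 in GRα cells, 1, became 0 with median centring, with the replicate block, when only the groups compared were fitted, and 0 to 1 without single arrays. With array weights control cells gave 1 list gene against vehicle and 2 against RU486, from 0. The replicate block gave 3 of 8 members for the lines with RU486 and 52 list genes, as without it, and it moved no other count by more than 1. No called difference changed sign; of 1380 gene differences refitted, 45 uncalled ones did, all of size 0.08 or less. The small number of arrays, 2 in GRα cells with RU486, limits what can be called.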
